A study of Mus musculus with 7 samples.

Results

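The suppressors of cytokine signalling (SOCS) family of the mouse has 8 members, Cish and Socs1 to Socs7, which were taken by symbol from the 48440 genes of an LPS table and the 55352 genes of an AAV table. All 8 members were listed in both tables. The cells were bone-marrow-derived macrophages (BMDMs), cultured from the marrow of mice with M-CSF at 20 ng per mL for 7 days. In the first experiment, WT BMDMs were sequenced untreated (0 h) or after 2 h or 4 h with LPS, the bacterial endotoxin sensed by TLR4, at 100 ng per mL. Each time point was 1 library. In the second experiment, BMDMs received for 48 h an adeno-associated viral vector (AAV) whose CAG promoter, active in many cell types, drove GFP in WT cells (AAV-GFP) or Shisa3 in cells labelled as Shisa3 overexpression (AAV-Shisa3), with 2 samples per group. Both AAV groups therefore carry the vector, and BMDMs without vector were not compared with them. It is not stated whether the 2 samples of a group came from separate mice or cultures, so that p-values measure only the spread between these samples.

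SOCS proteins are feedback inhibitors of cytokine receptors that signal through Janus kinases (JAKs) and STAT transcription factors. Each has an SH2 domain, which binds phosphorylated tyrosines, and a C-terminal SOCS box, which recruits elongin B, elongin C and cullin 5 into a ubiquitin ligase. SOCS1 and SOCS3 also carry a short region that blocks the catalytic site of JAKs, and in macrophages they are known for limiting interferon signalling and IL-6 signalling through gp130, respectively. CISH and SOCS2 are known as targets of STAT5 that act on receptors for growth hormone and haematopoietic cytokines, whereas SOCS4 to SOCS7 are less well characterised in macrophages.

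The recovered read counts of the LPS table summed to 7263258 at 2 h, the least deeply sequenced library, to 15588502 at 0 h and to 32659392 at 4 h. The depth of the AAV samples is unknown. The label BMDM was checked against marker genes. The macrophage markers Adgre1, Cd68, Csf1r, Itgam, Lyz2, Mertk and Fcgr1 were detected in every sample, with Csf1r at 1499 to 1975 TPM (a measure scaled for transcript length and library size) and Adgre1 at 2538 to 2920 TPM in the AAV samples. The 3 T cell markers (Cd3e, Cd3g and Trac) were at 0 in every sample, and the 3 B cell markers summed to 0.16 to 0.33 TPM. The transduced gene, Shisa3, stood at 7.88 and 10.85 TPM under AAV-GFP, and at 12.31 and 17.81 TPM under AAV-Shisa3, a log2 difference of 0.63 (SE 0.22) that did not pass the test (limma, adjusted p = 0.138). Both AAV-Shisa3 samples lay above both AAV-GFP samples for Shisa3. In bulk samples, fewer cells of a type and less RNA per cell cannot be told apart.

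For Cish, Socs1 and Socs3, whose values after LPS stood farthest from 0 h, the letters of STAT and interferon response elements near the start site are shown, since STATs are known to drive the family. RefSeq windows from 250 bases before to 50 bases after the start site (GRCm38.p6) were given for 4 of the 8 members: Cish, Socs1, Socs3 and Socs4. The windows were searched on both strands for TTCNNNGAA, the letters of a gamma-activated sequence (GAS) bound by STATs, for the core of an interferon-stimulated response element (ISRE), here GAAA and a further GAAA with NN between them, and for the NF-κB consensus. Stretches of 30 bases around the matches are printed 5′ to 3′ on the gene's strand, with the matched letters in capitals.
Cish, chr9:107296654-107296683, plus strand: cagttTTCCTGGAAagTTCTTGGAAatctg
Socs1, chr16:10785597-10785626, minus strand: cttgccgGAAAGAGAAACCGAAAgcggggg
Socs3, chr11:117969501-117969530, minus strand: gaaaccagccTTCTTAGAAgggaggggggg

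The stretch of Cish ran from -5 to 24 relative to the RefSeq start and lay in an untranslated exon of a GENCODE M21 transcript, with 2 GAS matches. That of Socs1 ran from -90 to -61, outside the annotated gene, with 2 ISRE core matches that share their inner GAAA letters. That of Socs3 ran from -164 to -135 relative to the RefSeq start, in an intron of a GENCODE M21 transcript, with 1 GAS match. It therefore lay downstream of the 5′ end of the GENCODE gene, at 117970047 on the minus strand. Of 32851 mouse windows of the same length, 8.3% held a GAS match and 0.457% held 2 or more, while 3.44% held an ISRE core match and 0.225% held 2 or more. The Socs4 window held neither, and none of the 4 windows held the NF-κB consensus, which was found in 4.51% of all windows. A match describes letters and does not show binding.

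In the annotation (GENCODE M21, GRCm38), Socs3 lies on chromosome 11 at 117966079 to 117970047 on the minus strand, with 2 exons and a transcript of 2552 nt. Socs1 lies on chromosome 16 at 10782240 to 10785536 on the minus strand, also with 2 exons, and Cish lies on chromosome 9 at 107296026 to 107302784 on the plus strand with 3 exons. No annotated gene overlapped Socs1, Socs2, Socs3, Socs4, Socs5 or Socs7. Cish overlaps 2 genes on the opposite strand, Gm17040 and Gm17041, whose LPS values were at most 6.55 and 2.18. Socs6 overlaps 3 pseudogenes that neither table lists, so its counts are the less certain ones.

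LPS-stimulated BMDMs were compared with untreated BMDMs to see which members moved with time. Socs3 and Socs1, the JAK-blocking members, and Cish were higher at 2 h by 256-fold, 232-fold and 124-fold, and Socs7 by 7.93-fold. Socs6 was lower by 4.43 times, and Socs2, Socs4 and Socs5 differed by less than 2-fold. From 2 h to 4 h Cish fell back by 18.5 times, whereas Socs3 and Socs1 were still 165-fold and 88.2-fold above 0 h. There was 1 library per time point and therefore no test of these differences. Values are on the authors' scale, read counts divided by 1 factor per library, and the intervals are exact 95% intervals that cover counting error only.

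Socs3 had values of 239.9 at 0 h (373 reads), 61361 at 2 h (28100 reads) and 39510 at 4 h (72708 reads). Both stimulated libraries stood far above 0 h, and the highest was at 2 h. The value at 2 h was 256-fold that at 0 h (interval 231 to 284), the value at 4 h was 165-fold (149 to 183), and the value at 4 h was 1.55 times lower than that at 2 h (1.53 to 1.58). Socs3 took place 19 from the top of the 17854 genes compared at 2 h and place 52 at 4 h, ranked by log2 change.

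Socs1 had values of 24.4 at 0 h (38 reads), 5667 at 2 h (2595 reads) and 2157 at 4 h (3969 reads). It had the same order of time points as Socs3 with a steeper decline after 2 h. The fold over 0 h was 232 at 2 h (interval 168 to 328) and 88.2 at 4 h (64.2 to 125), and the value at 4 h was 2.63 times lower than that at 2 h (2.50 to 2.76). Socs1 took place 23 at 2 h and place 89 at 4 h.

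Cish, which binds receptors of the GM-CSF and growth hormone type, had values of 9.65 at 0 h (15 reads), 1197 at 2 h (548 reads) and 64.7 at 4 h (119 reads). It was highest in the 2 h library and still above 0 h at 4 h. The fold over 0 h was 124 at 2 h (interval 74.5 to 223) and 6.70 at 4 h (3.90 to 12.4). From 2 h to 4 h it was 18.5 times lower (15.2 to 22.8), and only 2 of the 17854 genes had a more negative log2 change between these times.

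Socs2, an inhibitor of growth hormone receptor signalling, had 17, 9 and 17 reads at 0 h, 2 h and 4 h, with values of 10.9, 19.7 and 9.24. At this depth no difference was detectable, since the fold of 1.80 at 2 h had an interval of 0.706 to 4.26 and that of 0.845 at 4 h one of 0.405 to 1.76. The close relatives Cish and Socs2 therefore had values that differed little at 0 h, and Cish alone was high after LPS.

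Socs7, a large adaptor that binds insulin receptor substrate proteins, had values of 332 at 0 h (516 reads), 2631 at 2 h (1205 reads) and 1562 at 4 h (2874 reads). Like Socs1 and Socs3 it was highest at 2 h, with a fold of 7.93 at 2 h (interval 7.15 to 8.81) and 4.71 at 4 h (4.28 to 5.18). Socs6, which also binds insulin receptor substrates, moved the other way, with values of 1567 (2436 reads), 354 (162 reads) and 457 (841 reads). It was lower than at 0 h by 4.43 times at 2 h (3.78 to 5.23) and by 3.43 times at 4 h (3.17 to 3.71).

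Socs4 and Socs5, a pair of related members that act on epidermal growth factor receptor signalling, stayed closer to their 0 h values. Socs4 was at 374 (582 reads), 295 (135 reads) and 328 (604 reads), with a fold of 0.787 at 2 h (interval 0.648 to 0.951) and 0.877 at 4 h (0.781 to 0.984). Socs5 was at 247 (384 reads), 223 (102 reads) and 85.9 (158 reads), and was 2.88 times lower than at 0 h at 4 h (2.38 to 3.49) with a fold of 0.902 at 2 h (0.718 to 1.12). The direction of Socs4 at 4 h, of Socs5 at 2 h and of Socs2 at 4 h rests on the scaling, as their log2 changes of -0.19, -0.15 and -0.22 turned to 0.18, 0.16 and 0.15 with libraries centred on their medians.

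**Figure D1:**
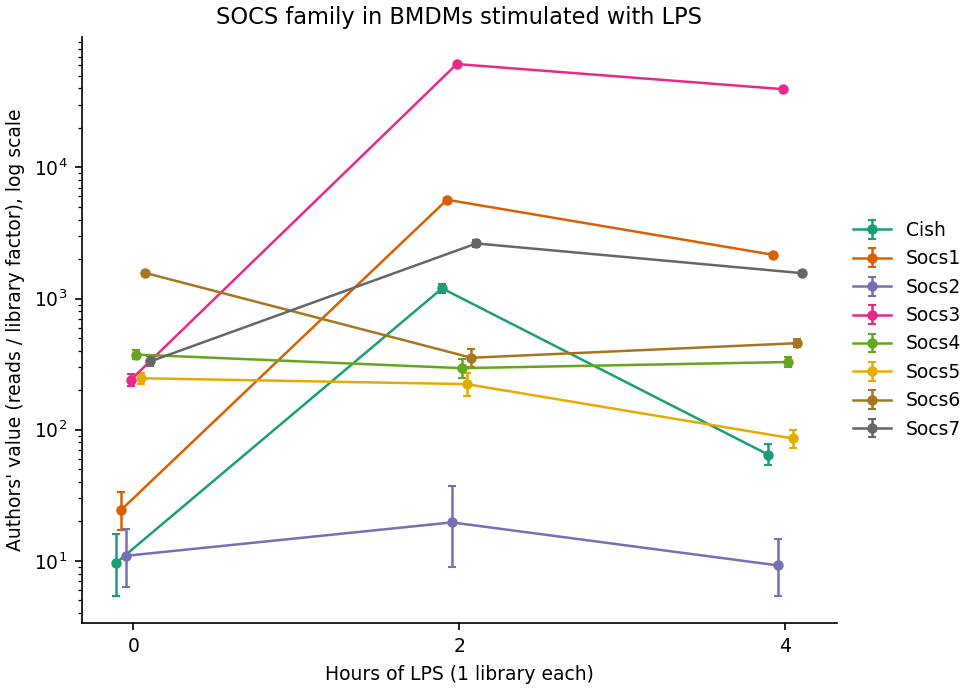
Values of the 8 SOCS family members (vertical log axis, reads divided by the authors' library factor) against hours of LPS, 1 library per time point, with exact 95% Poisson intervals as bars. Socs3, Socs1, Cish and Socs7 are highest at 2 h, Cish falls to 64.7 at 4 h (9.65 at 0 h), and Socs6 is highest at 0 h.

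After 2 h, 4 of the 8 members were at least 2-fold higher on log2(value + 1), where 20.5% of all genes were, and 1 was at least 2-fold lower, where 24.7% were. At 4 h, 4 members were higher and 2 lower, against 22.2% and 23.6% of all genes. Between 2 h and 4 h no member was at least 2-fold higher, against 17.9% of all genes, and 4 members (Cish, Socs1, Socs5 and Socs2) were at least 2-fold lower, against 15.2%, where Socs2 rests on 9 and 17 reads. That count was 3 with TMM factors, with median centring and with a pseudocount of 5, and with median centring 5 members were higher at 2 h. The median log2 change of the 8 members was 1.89 at 2 h and 1.02 at 4 h, and that of all genes was -0.05 and -0.04. The 2 h and 4 h comparisons share the 0 h library.

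Scaling set how all genes split. Of the genes changed at least 2-fold, 45.4% were higher at 2 h as deposited, 25.5% with libraries scaled to equal totals and 58.2% with libraries centred on their medians, and at 4 h these shares were 48.5%, 23.1% and 63.5%. Equal totals moved the median log2 change of all genes to -0.68 at 2 h and -0.81 at 4 h. Socs3, Socs1, Cish and Socs7 stayed at least 2-fold higher and Socs6 at least 2-fold lower than at 0 h under each of these scalings. With equal totals the log2 change of Socs3 was 7.33 at 2 h and 6.54 at 4 h, to be read against those shifted medians. The 7 neutrophil markers had summed values of 3597, 7193 and 6042 over the 3 times, but not in 1 direction. S100a9 was at 1538, 3522 and 2728 and Ngp at 814, 1981 and 1315, S100a8 at 963, 834 and 1561, and Camp at 206, 742 and 412. Retnlg was at 28.3, 72.1 and 6.52, Elane at 45.7, 39.3 and 17.9 and Ly6g at 2.57, 2.18 and 1.09. Their part in these results was not tested. Macrophage markers did not move in 1 direction either. Lyz2 had values of 242500, 224300 and 209200, Cd68 of 7681, 6802 and 8264, and Mertk of 1445, 808 and 1355. Adgre1 was at 17260, 25150 and 30270 and Fcgr1 at 1432, 4551 and 15970. Itgam was at 8711, 12820 and 11740 and Csf1r at 46550, 53750 and 31850.

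Levels of different members were compared per kb of the main annotated transcript. At 0 h Socs6 was highest, with a value of 259.6 per kb, followed by Socs3 with 94.0. Socs4, Socs5 and Socs7 followed with 54.4, 53.1 and 47.3 per kb and overlapping counting intervals, and Socs1, Socs2 and Cish were lowest with 8.41, 4.92 and 3.39. At 2 h the order was led by Socs3 with 24044 per kb, Socs1 with 1949, Cish with 420 and Socs7 with 375, of which Cish and Socs7 had overlapping counting intervals. Socs3 made up 17.9% of the summed per-kb value of the 8 members at 0 h, 89.2% at 2 h and 93.2% at 4 h. The ratio of Socs3 to Socs1 per kb was 11.2, 12.3 and 20.9 at the 3 times. With the mean length of all annotated transcripts of a gene in place of the main one, Socs3 took place 3 instead of place 2 at 0 h, where its share was then 9.01%.

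AAV-Shisa3 was compared with AAV-GFP to see which transcripts differed with Shisa3 supplied. Socs1 and Socs3 rose, by 1.85-fold and 1.76-fold between group means, and were the 2 members that passed the test. Socs4 and Socs5 were lower in both AAV-Shisa3 samples but did not pass, and neither did Socs6 and Socs7. Cish and Socs2 were too low to be tested. The values are TPM, and differences are on log2(TPM + 1), which understates the change of low genes.

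Socs1 stood at 8.18 and 9.56 TPM in the AAV-GFP group, and at 16.19 and 16.71 TPM in the AAV-Shisa3 group. The groups did not overlap, with means of 8.87 ± 0.976 and 16.45 ± 0.368 TPM (SD, n = 2 each). The log2 difference was 0.83 (SE 0.12), with an adjusted p of 0.0263 (limma with a variance trend, Benjamini-Hochberg over 11218 genes).

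Socs3 stood at 143.9 and 181.2 TPM in the AAV-GFP group, and at 273.5 and 297.8 TPM in the AAV-Shisa3 group. Its groups did not overlap either, with means of 162.5 ± 26.4 and 285.6 ± 17.2 TPM (SD, n = 2 each). The log2 difference was 0.82 (SE 0.12), with an adjusted p from limma of 0.0272. Socs1 and Socs3 took places 170 and 173 from the top of 11218 genes by log2 difference.

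These calls depended on the fit. Without the variance trend the adjusted p from limma was 0.0557 for Socs1 and 0.0719 for Socs3, and 5 genes passed in all. With 1 of the 4 samples left out, the lone sample of its group was assumed to vary like the pair of the other group, which leaves 1 residual degree of freedom per gene, so that a lost call does not show a smaller difference. Neither gene passed in these fits, with log2 differences of 0.72 to 0.93 for Socs1 (adjusted p 0.103 to 0.150) and 0.65 to 0.98 for Socs3 (adjusted p 0.0955 to 0.145), and 0, 0, 25 and 42 genes passed in all without AAV-GFP sample 1, AAV-GFP sample 2, AAV-Shisa3 sample 1 and AAV-Shisa3 sample 2. An exact two-sided permutation test of 2 against 2 samples cannot go below p = 0.333.

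Among the other members, Socs4 measured 3.89 and 4.27 TPM in AAV-GFP cells, then 2.59 and 3.06 TPM in AAV-Shisa3 cells, a log2 difference of -0.41 (SE 0.16, limma adjusted p = 0.169). Socs5 measured 11.07 and 14.96 TPM, then 8.82 and 10.15 TPM, a log2 difference of -0.41 (SE 0.17, limma adjusted p = 0.184). For both genes the AAV-Shisa3 samples lay below the AAV-GFP samples without passing the test.

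Socs6 measured 23.01 and 22.93 TPM in AAV-GFP cells, then 25.94 and 24.17 TPM in AAV-Shisa3 cells, a log2 difference of 0.12 (SE 0.094, limma adjusted p = 0.445). Socs7 measured 6.85 and 7.10 TPM, then 8.05 and 6.45 TPM, with overlapping groups and a log2 difference of 0.04 (SE 0.15, limma adjusted p = 0.875). The difference of Socs7 was -0.10 without AAV-Shisa3 sample 1. Cish was at 0.50 and 0.54 TPM and at 0.56 and 1.39 TPM, and Socs2 at 0.26 and 1.06 TPM and at 0.10 and 0.63 TPM, with means over the 4 samples below the minimum of 1 TPM.

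**Figure D2:**
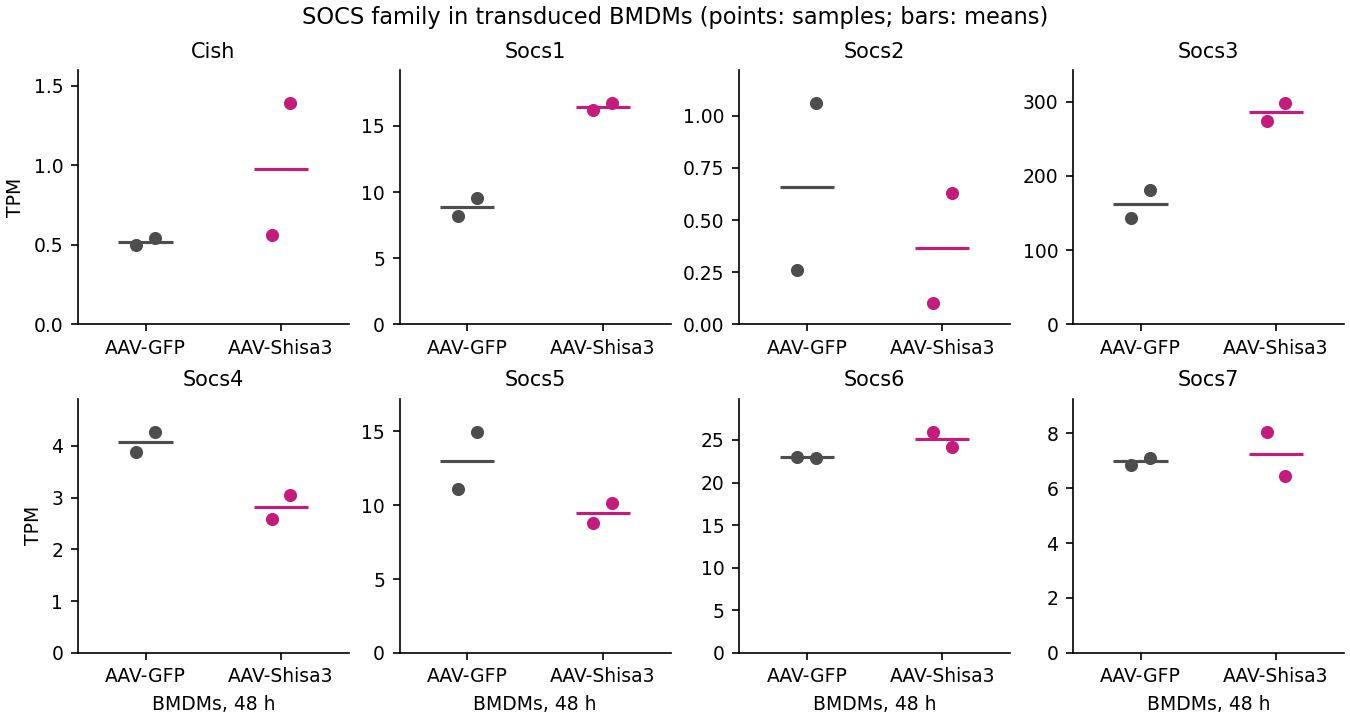
TPM of each SOCS family member in the 2 AAV-GFP and 2 AAV-Shisa3 samples at 48 h, 1 panel per gene with its own vertical axis from 0, where points are samples and bars are group means. The groups are far apart for Socs1 (8.18 to 9.56 against 16.19 to 16.71 TPM) and Socs3 (143.9 to 181.2 against 273.5 to 297.8 TPM) and overlap for Socs7 and Socs2.

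Of the 6 members tested, 2 passed with higher values, where 2.23% of all genes did, and 0 passed with lower values, where 4.1% did. At an unadjusted limma p under 0.05, 2 members were higher (8.21% of all genes) and 1, Socs4, was lower (19.8% of all genes). The AAV-Shisa3 samples lay entirely above the AAV-GFP samples for 3 of the 6 (Socs1, Socs3 and Socs6), against 18.2% of all genes, and below for 2 (Socs4 and Socs5), against 41.2%. The median log2 difference of all genes was -0.10, and centring the samples on their medians moved it to 0.01 and the share of called genes that were higher from 35.2% to 64.1%. Socs1 and Socs3 passed under centring with log2 differences of 0.94 and 0.93.

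Neutrophil markers moved in the same direction as Socs1 and Socs3. Of 7 such markers (S100a8, S100a9, Ngp, Camp, Ly6g, Retnlg and Elane), 6 were above AAV-GFP in both AAV-Shisa3 samples, and their summed level was 574.6 and 545 TPM for AAV-GFP, then 1061 and 660.1 TPM for AAV-Shisa3. None of the 7 was at 0 in all samples. Their part in the result was not tested. The sums of the 5 fibroblast markers were 9.39 to 16.3 TPM and those of the dendritic cell and mast cell markers were at most 0.57 TPM.

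As a level, Socs3 led in all 4 AAV samples, followed by Socs6. With AAV-GFP the order went on with Socs5, Socs1, Socs7 and Socs4, and with AAV-Shisa3 Socs1 stood above Socs5. The samples of neighbours in these orders did not overlap down to Socs4, whereas Cish and Socs2 overlapped. The 8 members summed to 197.7 and 241.6 TPM for AAV-GFP, then 335.7 and 360.4 TPM for AAV-Shisa3. Socs3 held 72.8% and 74.99% of that sum in the first group and 81.5% and 82.6% in the second. The ratio of Socs3 to Socs1 stayed between 16.9 and 19.0 in the 4 samples.

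**Figure D3:**
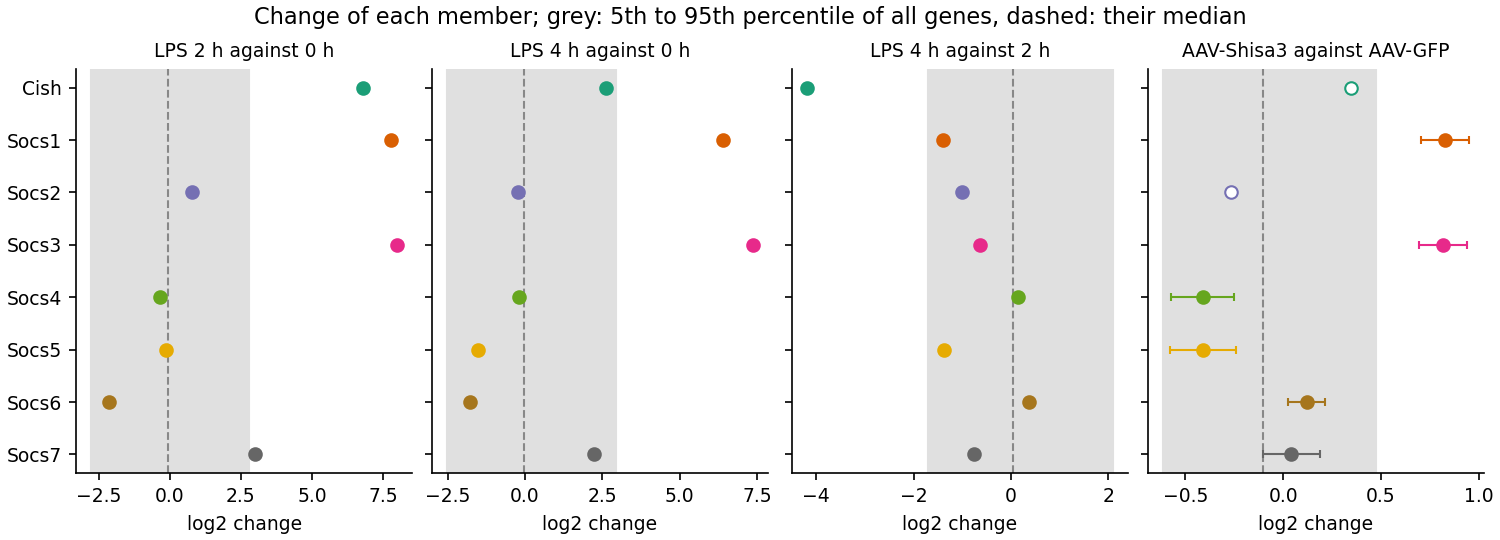
Log2 change of each SOCS family member (rows) in the 3 LPS comparisons and in AAV-Shisa3 against AAV-GFP, where the grey band spans the 5th to 95th percentile of all genes and the dashed line is their median. Bars in the AAV panel are standard errors and open circles mark Cish and Socs2, which were not tested there. Socs1 and Socs3 lie right of the band in both comparisons with 0 h and in the AAV panel, and Cish lies left of it between 2 h and 4 h at -4.19.

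The genes whose changes were most like those of a member were named by the Euclidean distance over 3 log2 changes (LPS 2 h, LPS 4 h and AAV), among 10532 symbols with values in both tables. For Socs3 these were Tnf (distance 0.268), Il12b (0.585) and Ccl4 (0.838), which encode inflammatory cytokines and a chemokine. For Socs1 they were Cxcl1 (0.31), Cxcl2 (0.614) and Tnf (0.746), the first and second encoding neutrophil-attracting chemokines. For Cish they were farther away, Clcf1 (1.08), Errfi1 (1.10) and Jdp2 (1.57), and for Socs2, whose changes were small, Lpcat1 (0.0585), B430305J03Rik (0.0908) and Tbc1d10a (0.106). The AAV changes of Cish and Socs2 entered these distances from values below the minimum used for the test. The 3 changes entered unscaled, and Jdp2 had an AAV change of -0.73, where that of Cish was 0.35.

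The ligands of the receptors that SOCS proteins restrain include Il6, Il10, Il27 and Ifnb1. Of 24 ligand genes listed, 17 passed the filter on low values. Of these, 15 were at least 2-fold higher after 2 h, 16 after 4 h, and 1 was lower at both, with a median log2 change of 4.36 and 3.47. Over all genes 20.5% and 22.2% were higher and 24.7% and 23.6% lower. The lower gene was Il2, named after its values were seen, from 5, 0 and 0 reads, where counting error allows a ratio to 0 h of up to 3.705 at 2 h and 0.922 at 4 h. At 0 h, 9 of the 17 had 3 reads or fewer, and those that passed the filter only through the LPS libraries had to be higher, so that the counts are a description of these genes alone. With those 9 set at a bound computed against 3 reads, and without the 2 genes at 2 h and the 1 gene at 4 h that allow no bound, the medians were 4.76 and 3.71, with 13 and 14 genes higher. With equal library totals 15 and 13 of the 17 were higher. Il27, which signals through gp130, was 411-fold higher at 2 h (interval 289 to 605.6) and 354-fold at 4 h (249.5 to 522). Il6, the ligand of gp130 whose signal SOCS3 restrains, had 11, 599 and 4043 reads and was 185-fold (103 to 372) and 311-fold higher (173 to 622.5).

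Il12b was 413-fold higher at 2 h (interval 241 to 777), and Il19 and Csf3, with no read at 0 h, were at least 329-fold and 108-fold higher at 4 h against a floor of 3 reads at 0 h. That floor leaves out the counting error of the 4 h library, and the exact 95% lower limits were 267-fold and 87.3-fold. Il19 was at least 93.9-fold higher at 2 h by the same floor, with an exact lower limit of 74.7-fold. Il10, an anti-inflammatory cytokine acting through STAT3, was 27.4-fold higher at 2 h (22.5 to 33.8) and 22.9-fold at 4 h (18.9 to 27.9). Ifnb1, which encodes interferon beta, had 1, 35 and 38 reads, a ratio of 119 at 2 h (interval 20.0 to 4825) and 32.1 at 4 h (5.42 to 1301).

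With AAV-Shisa3, 9 of the 24 ligands could be tested, of which 3 rose and 0 fell (limma), where 2.23% of all genes rose and 4.1% fell. An unadjusted p under 0.05 was reached by 5 upward and 0 downward, against 8.21% and 19.8% of all genes, and the median log2 difference was 0.60. Among the 5 was Il12b, at 0.50 and 0.79 TPM under AAV-GFP, then 1.87 and 2.15 TPM. It reached the minimum mean of 1 TPM only through the AAV-Shisa3 samples and had to be higher. The count and the median therefore describe these genes alone. Il27 measured 3.67 and 5.25 TPM in AAV-GFP cells, then 12.03 and 12.69 TPM, a log2 difference of 1.31 (SE 0.17, limma adjusted p = 0.0231). Il10 measured 30.24 and 34.31 TPM, then 56.79 and 53.22 TPM, a log2 difference of 0.75 (SE 0.099, limma adjusted p = 0.0231), and Osm, another gp130 ligand, by 0.67 (SE 0.13, limma adjusted p = 0.0465). Il6 had a log2 difference of 0.53 (SE 0.12, limma adjusted p = 0.0568) and Ifnb1 one of 0.03 (SE 0.24, limma adjusted p = 0.940), and neither passed. Il6 passed under centring (0.64, limma adjusted p = 0.0379) and with the replicate block (limma adjusted p = 0.0443). It also passed over all rows (limma adjusted p = 0.0378), a fit in which limma warned of zero variances. Over the alternatives that kept all 4 samples, its limma adjusted p was 0.0378 to 0.163. With 1 sample left out, the log2 difference of Il6 was 0.456 to 0.595.

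Of 26 receptor chains, 13 at 2 h and 12 at 4 h were at least 2-fold higher, which is 50.0% and 46.2% against 20.5% and 22.2% of all genes. The 5 and 6 that were lower make 19.2% and 23.1%, against 24.7% and 23.6% of all genes, and 1 of the 5 had 3 reads at 0 h and 0 at 2 h. The median log2 change was 0.90 and 0.92. With equal library totals 5 and 6 chains were higher and 6 and 7 lower, with medians of 0.26 and 0.10. The IL-4 receptor chain Il4ra had log2 changes of 4.49 and 4.39 and the IL-15 receptor chain Il15ra 3.34 and 4.09. The interferon receptor chain Ifnar1 was at 1.98 at 2 h, and at 4 h the IL-13 receptor chain Il13ra1 was at 3.19 and the G-CSF receptor Csf3r, a receptor that SOCS3 binds, at 2.83. Lifr, the receptor chain for leukaemia inhibitory factor, was at -1.91 at 2 h. Lower at 4 h, and named after their values were seen, were the IL-6 receptor chain Il6ra, by 6.995 times (3.59 times at 2 h), and Il6st, which encodes gp130, by 2.49 times. Among 20 chains tested with AAV-Shisa3, 8 reached an unadjusted p under 0.05 upward and 2 downward, against 8.21% and 19.8% of all genes. By adjusted p 2 rose and 1 fell, against 2.23% and 4.1% of all genes. The 2 that rose were Csf2rb, by 0.71 (limma adjusted p = 0.0343) and Il3ra by 0.56 (limma adjusted p = 0.0397), which form receptors for GM-CSF and IL-3, while Il4ra fell by 0.38 (limma adjusted p = 0.0431). Under centring Il4ra did not pass, at -0.26 (limma adjusted p = 0.108).

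Of the 11 kinase and STAT genes, 8 were at least 2-fold higher and 0 lower at both times after LPS (72.7% higher, against 20.5% and 22.2% of all genes), with a median log2 change of 1.40 at 2 h and 1.42 at 4 h. With equal library totals 5 were higher at each time and 0 and 1 lower, with medians of 0.74 and 0.59. Jak2, the kinase that SOCS1 and SOCS3 block, had log2 changes of 4.28 and 4.88. Stat5a, of the STAT5 pair known to induce Cish, was at 3.85 at 2 h and 2.85 at 4 h, and Stat2, which acts in type I interferon signalling, at 2.41 and 3.19. Stat3, the main STAT of gp130 receptors, was at 1.93 and 2.67. With AAV-Shisa3, 0 of 11 passed in either direction (limma), 0 also at an unadjusted p under 0.05, with a median of -0.02. Stat3 had a log2 difference of -0.01 (SE 0.075, limma adjusted p = 0.949), whose sign turned to 0.11 with centring.

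Of 9 genes listed as partners of the SOCS-box ubiquitin ligase, 2 at 2 h and 3 at 4 h were at least 2-fold higher. These are 22.2% and 33.3%, against 20.5% and 22.2% of all genes. The number lower was 0, against 24.7% and 23.6% of all genes. The median log2 change was 0.33 and 0.57. With equal library totals 1 was higher and 1, Cul5, lower at 2 h, and 2 and 0 at 4 h, with medians of -0.34 and -0.26. Ube2f, an enzyme that attaches NEDD8 to cullin 5, was at 2.25 and 2.21, and Arih2, a ligase that works with neddylated cullin 5, at 1.09 at 2 h. At 4 h Cul2, a cullin other than cullin 5, was at 1.87 and Eloc, which encodes elongin C, at 1.42. Cul5 itself was at -0.53 at 2 h and at 0.24 at 4 h, and at -1.19 and -0.58 with equal library totals. Arih2 was then at 0.43 at 2 h. With AAV-Shisa3, 0 of 9 passed (limma), while an unadjusted p under 0.05 was reached by 0 upward and 1 downward, where 8.21% and 19.8% of all genes reached it, with a median log2 difference of -0.09 and with Cul5 at -0.20 (SE 0.12, limma adjusted p = 0.346).

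Other inhibitors of the pathway numbered 12, of which 3 were at least 2-fold higher and 1 lower at 2 h, and 6 and 1 at 4 h, against 20.5% and 24.7% of all genes at 2 h and 22.2% and 23.6% at 4 h. The median log2 change was 0.19 and 0.91. With equal library totals 2 were higher and 3 lower at each time, with medians of -0.47 and 0.09. Usp18, which blocks the interferon receptor, was at 4.77 and 6.01. The phosphatases Ptpn1 and Ptpn2, which act on JAKs and STATs, were at 2.50 and 1.40 at 2 h and at 2.66 and 1.59 at 4 h. Ptprc, the phosphatase CD45, was at 1.55 at 4 h, and Pias2, of the PIAS family of STAT inhibitors, at -1.51 at 2 h. Of the 12, 0 rose and 1 fell with AAV-Shisa3 (limma), while an unadjusted p under 0.05 was reached by 1 upward and 5 downward, and the median was -0.10. Over all genes the corresponding shares were 2.23% and 4.1% by adjusted p and 8.21% and 19.8% unadjusted. The gene that fell was Pias3, a STAT3 inhibitor, by 0.63 on the log2 scale (SE 0.12, limma adjusted p = 0.0413), and under centring it did not pass, at -0.51 (limma adjusted p = 0.0574).

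Of 12 adaptors outside the family that also carry a SOCS box, 11 passed the filter, with 3 at least 2-fold higher and 3 lower at 2 h, each 27.3% against 20.5% and 24.7% of all genes, and with 5 and 3 at 4 h, against 22.2% and 23.6%. The median log2 change was 0.52 and 0.94. With equal library totals 1 was higher and 4 lower at 2 h, and 2 and 3 at 4 h, with medians of -0.14 and 0.19. Spsb1, an adaptor that targets inducible nitric oxide synthase, was at 5.10 at 2 h and 3.92 at 4 h. Rab40c was at -2.85 and -1.81, Spsb2 at -1.96 at 2 h, and Asb13 at 2.05 at 4 h. Asb2 was counted as lower from 14, 0 and 2 reads. Of 10 tested with AAV-Shisa3, 0 rose and 1 fell (limma), against 2.23% and 4.1% of all genes, while an unadjusted p under 0.05 was reached by 1 upward and 2 downward, where 8.21% and 19.8% of all genes reached it, and the median was -0.05. Spsb2 fell by 0.57 (SE 0.079, limma adjusted p = 0.0236).

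Of 20 genes known to be regulated by STATs, 16 were at least 2-fold higher and 1 lower at 2 h, and 18 and 0 at 4 h (80.0% and 90.0% higher, against 20.5% and 22.2% of all genes), with a median log2 change of 3.53 and 2.999. Ido1, which degrades tryptophan, had 1 read at 0 h. Il1rn, the IL-1 receptor antagonist induced by IL-10 and STAT3, was at 6.54 and 8.52. The interferon-induced genes Mx1, Isg15 and Ifit1 were at 5.70, 5.09 and 4.96 at 2 h and at 5.98, 6.38 and 5.93 at 4 h. Scaled to equal library totals, 14 were higher and 2 lower at 2 h, and 15 and 0 at 4 h, with medians of 2.89 and 2.21. Of 19 tested with AAV-Shisa3, 5 rose and 1 fell, against 2.23% and 4.1% of all genes, with a median of 0.20. An unadjusted limma p under 0.05 was reached by 9 upward and 1 downward, against 8.21% and 19.8%. Ifit1 rose by 0.72, the AP-1 genes Fos and Junb by 0.67 and 0.55, and Bcl3, an atypical IκB, by 0.61, with limma adjusted p of 0.0295, 0.0206, 0.0236 and 0.0343. Outside the naming rule, and chosen after their values were seen, the fifth gene that rose was Mx1 (0.55, limma adjusted p = 0.0309), and the cell cycle inhibitor Cdkn1a fell by 0.33 (limma adjusted p = 0.0495). Like Socs1 and Socs3, the 12 pathway genes called with AAV-Shisa3 under the naming rule did not pass without the variance trend (adjusted p 0.0557 to 0.108) or without any 1 of the 4 samples (0.0631 to 0.204).

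**Figure D4:**
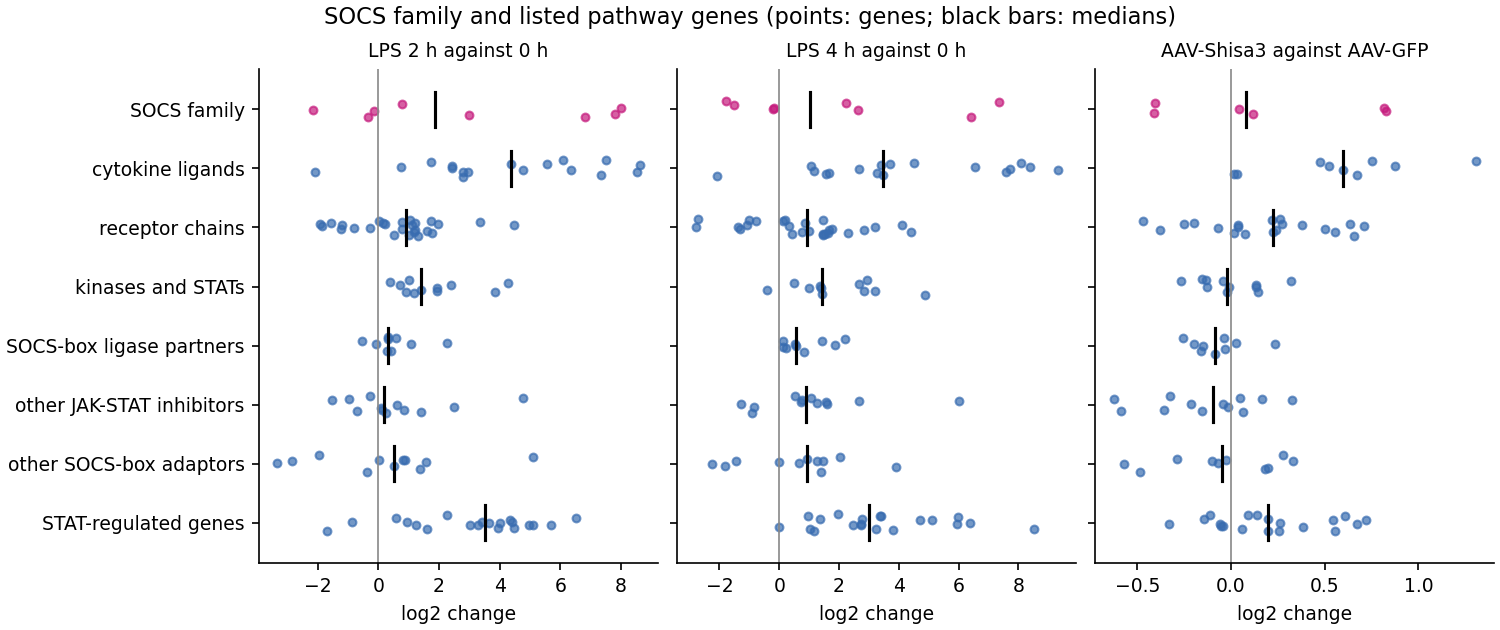
Log2 change of SOCS family members (top row) and of the genes of 7 lists of their pathway in 2 LPS comparisons and the AAV comparison, where each point is a gene and black bars are medians. Cytokine ligands (medians 4.36, 3.47 and 0.60) and STAT-regulated genes (3.53, 2.999 and 0.20) lie to the right, while SOCS-box ligase partners have medians of 0.33, 0.57 and -0.09, of which the LPS medians turn negative with equal library totals.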

How the data were processed

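RNA-seq of BMDMs was analysed in 7 samples, 3 LPS libraries and 4 AAV samples, grouped by their labels. The LPS values are a signal that the authors deposited after dividing each read count by a factor for its library. Reads were recovered from the step of each library, of which 100% of values were whole multiples (tolerance 0.01). The AAV values that the authors deposited were read as TPM, since they have 2 decimals and sum to 999778.37 to 999818.14. The submitters' processing notes list mm9. The aligner, counter and annotation are not given in the sources used here.

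Gene positions and lengths were taken from GENCODE M21 (GRCm38), which matched 99.2% of the LPS identifiers and 96.5% of the AAV symbols. In 26 AAV symbols a name had been turned into a date. Windows of sequence came from RefSeq (GRCm38.p6).

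LPS changes were computed on log2(value + 1) for the 17854 genes whose mean reached 1, with 2-fold as the threshold and exact 95% Poisson and conditional binomial intervals. AAV samples were compared with limma 3.58.1 (R 4.3.3) with a variance trend on log2(TPM + 1) for the 11218 genes whose mean reached 1 TPM, at a Benjamini-Hochberg threshold of 0.05, two-sided. The design named edgeR for the case of counts, which did not arise. edgeR 4.0.16 was used for TMM factors alone. Other steps used Python 3.11.15 with scipy 1.17.1, pandas 2.3.3 and numpy 2.4.6. The fit was tested on simulated data.

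Named genes are the 8 members, up to 4 genes per list and comparison with the largest change past the threshold, and Il6, Il10, Ifnb1, Stat3 and Cul5, with Shisa3 and the 3 genes nearest to Cish, Socs1, Socs2 and Socs3 in log2 change. Some genes that this rule or the marker lists name are not reported here. The members and lists were chosen with earlier results of these data known. Alternatives were other scalings (equal library totals, TMM, medians), pseudocounts of 0.1 and 5, filters, no variance trend, the replicate block, another transcript length and leaving out each AAV sample.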

Additional observations from a re-analysis of the deposited data

Results flagged for a closer look

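Socs2 and Cul5 had log2 changes of opposite sign at the 2 times after LPS. Socs2 was at 0.79 at 2 h and at -0.22 at 4 h, from 17, 9 and 17 reads at 0 h, 2 h and 4 h. Cul5 was at -0.53 at 2 h and at 0.24 at 4 h, from 835, 170 and 1168 reads. There was 1 library per time point and the difference between the times was not tested. The signs rest on the scaling: centred on library medians, Socs2 was at 1.10 and 0.15, and with equal library totals Cul5 was at -1.19 and -0.58.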

How the results depend on the processing

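Of 66 values of the tested members in the AAV experiment under the alternatives, 53 kept their direction and side of the threshold, 12 (Socs1 and Socs3) no longer passed and 1 turned its sign. Members that passed numbered 2, but 0 without the variance trend and 0 in a fit on genes above 0 TPM in at least 1 sample, which was chosen after the data were seen (limma, 20300 genes tested, 0 called, 3529 at an unadjusted p under 0.05). Leaving out each sample gave 0 to 0 members passing in limma. At an unadjusted p under 0.05, at least 2 members were higher under each of these alternatives. Genes called in all numbered 710, against 5 without the trend, 2555 over all rows (where limma warned of zero variances), 0 above 0 TPM and 0 to 42 when 1 sample was left out. With the replicate block, 1275 genes were called, with Socs1 and Socs3 at adjusted p of 0.0196 and 0.0129. Same-numbered samples share only a number, with a correlation of 0.188 between their deviations in 2 pairs. The cause of these differences was not tested.

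When 1 sample was left out, the log2 difference ranged from -0.10 to 0.18 for Socs7, from -0.14 to 0.20 for Ifnb1 and from -0.044 to 0.026 for Stat3, none of which passed. Stat3 was at 0.11 under centring. Of 186 values of named pathway genes in the AAV experiment 104 kept direction and side of the threshold, 74 no longer passed, 3 (Il6) newly passed and 5 turned their sign.

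With equal LPS library totals, 2 members were at least 2-fold lower at 2 h (Socs6 and Socs4) in place of 1, and 3 in place of 2 at 4 h. Of 120 LPS values of the members, 27 moved beyond their counting interval and 93 did not. With the mean transcript length, Socs3 took place 3 at 0 h. Of 305 LPS values of named pathway genes, 103 moved beyond their counting interval. Socs2 had 9 to 17 reads per LPS library and Cish 15 at 0 h.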
